A study of Mus musculus with 12 samples.

Results

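The Hox genes described here are the mouse genes whose symbol is Hox followed by a cluster letter a to d and a number. The count tables held 38 of them among 37583 genes, with 11 in cluster a, 10 in b, 9 in c and 8 in d. Hoxd4, the remaining symbol of this form in the annotation, was not analysed here. RNA was measured in 12 libraries from mouse cells of strain 129SV/Jae/C57BL6J, with 2 libraries in each of 6 groups. The d3 Eff group was sorted at day 3 of reprogramming as SSEA1+CD73+Sca1- cells, and d3 Ineff as SSEA1+CD73-Sca1+ cells. At day 6 the d6 Eff group was sorted as SSEA1+EpCAM+Sca1- cells, and d6 Ineff as SSEA1+EpCAM-Sca1+ cells. The iPSC group held induced pluripotent stem cells, and the MEF group held mouse embryonic fibroblasts. Medium differed with the groups: the intermediates were kept in ES medium with dox and AA, iPSC in ES medium and MEF in MEF medium. In all 6 groups cells were taken up with trypsin, stained and sorted before RNA was extracted, and libraries were built from poly-A RNA. The labels do not say whether 2 libraries of a group came from separate cultures or animals, so p-values measure the spread between libraries, which may be technical.

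Hox genes encode homeodomain transcription factors that give cells their position along the body axis. Within a cluster, low-numbered (anterior) genes act toward the head and high-numbered (posterior) genes toward the tail, and posterior genes of clusters a and d also pattern the limb from shoulder to digits. Cultured fibroblasts keep a Hox profile that marks where in the body they were taken, whereas pluripotent cells hold the clusters largely silent under Polycomb repression. Numbers 1 to 4 are called anterior below, 5 to 8 central and 9 to 13 posterior, which gave 11 anterior, 11 central and 16 posterior members. The comparisons below give how far each cluster stood from its fibroblast level in the sorted intermediates and in iPSC.

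Hoxa13, Hoxd12 and Hoxd13 were lower in d6 Eff than in d6 Ineff. Hoxd9 was higher in d6 Ineff than in MEF. Hoxb1, which had counts in iPSC alone and did not pass the test against MEF, is included for description only. The start-site windows of these genes are printed. Each runs 5′ to 3′ on the gene's strand, from 250 bases before to 50 bases after the RefSeq start on build GRCm38.p6, in lower case with each CG dinucleotide in capitals. The Hoxa13 window is chr6:52260831-52261130 on the minus strand. The others lie on the plus strand, at chr2:74674763-74675062 for Hoxd12, chr2:74667975-74668274 for Hoxd13, chr2:74697513-74697812 for Hoxd9 and chr11:96365508-96365807 for Hoxb1.
Hoxa13: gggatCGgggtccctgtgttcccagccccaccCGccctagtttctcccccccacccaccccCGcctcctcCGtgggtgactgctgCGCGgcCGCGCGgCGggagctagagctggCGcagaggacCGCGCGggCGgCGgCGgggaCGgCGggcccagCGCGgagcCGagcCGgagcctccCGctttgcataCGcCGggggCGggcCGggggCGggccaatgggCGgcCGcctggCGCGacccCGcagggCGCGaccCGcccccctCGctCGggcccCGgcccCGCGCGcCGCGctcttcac
Hoxd12: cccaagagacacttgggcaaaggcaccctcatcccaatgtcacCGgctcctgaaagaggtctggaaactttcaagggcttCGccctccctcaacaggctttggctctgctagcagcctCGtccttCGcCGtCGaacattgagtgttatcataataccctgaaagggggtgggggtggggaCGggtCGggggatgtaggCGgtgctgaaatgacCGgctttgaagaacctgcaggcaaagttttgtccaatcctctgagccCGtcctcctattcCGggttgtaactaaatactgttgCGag
Hoxd13: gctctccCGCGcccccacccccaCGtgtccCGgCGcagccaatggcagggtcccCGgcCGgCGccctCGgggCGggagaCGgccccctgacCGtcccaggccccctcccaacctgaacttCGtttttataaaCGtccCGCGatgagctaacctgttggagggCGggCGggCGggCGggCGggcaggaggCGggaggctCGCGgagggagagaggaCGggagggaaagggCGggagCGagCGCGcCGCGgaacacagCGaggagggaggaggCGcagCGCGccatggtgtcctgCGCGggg
Hoxd9: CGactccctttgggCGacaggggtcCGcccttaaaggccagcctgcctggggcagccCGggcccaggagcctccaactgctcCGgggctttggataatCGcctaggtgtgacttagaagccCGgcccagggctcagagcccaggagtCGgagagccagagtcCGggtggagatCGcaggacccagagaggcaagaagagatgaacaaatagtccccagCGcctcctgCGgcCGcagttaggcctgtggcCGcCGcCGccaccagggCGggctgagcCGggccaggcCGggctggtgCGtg
Hoxb1: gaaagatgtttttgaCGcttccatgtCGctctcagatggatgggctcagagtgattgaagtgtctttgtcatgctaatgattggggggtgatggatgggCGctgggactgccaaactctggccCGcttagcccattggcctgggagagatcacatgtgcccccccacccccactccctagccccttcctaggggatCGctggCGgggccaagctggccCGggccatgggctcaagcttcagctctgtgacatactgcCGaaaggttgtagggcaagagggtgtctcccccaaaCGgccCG
Capitals are dense in the windows of Hoxa13, with 45 CG dinucleotides, and Hoxd13, with 37, and sparser in those of Hoxd9, Hoxd12 and Hoxb1, with 20, 13 and 10. The RefSeq table held 23 windows of 21 members. Their median was 15 CG dinucleotides, against 7 over all 32851 windows in the table. A ratio of observed to expected CG of at least 0.6 was reached by 12 Hox windows, or 52.2%, against 35.8% of all windows. The letters AGGTCA, the half-site bound by retinoic acid receptors, stood on either strand in 6 Hox windows, or 26.1%, against 16.3% of all windows. TATAAA stood on either strand in 3, Hoxd13 among them, against 13.6% of all windows; overlap between the motifs was not considered. These matches describe the letters only.

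Counts assigned to genes ranged between 9284060 and 22763548 per library, and the Hox genes took between 340 and 8285 of them. The MEF library of replicate 2 stood apart: it was the shallowest, and 47.2% of its uniquely aligned reads lay outside genes, against 24.1% in d6 Eff replicate 2 and 5.10% to 11.7% in the other 10 libraries. Correlation of log2 CPM between the 2 libraries of a group was 0.943 in MEF and 0.968 to 0.982 elsewhere. CPM here means counts per 1000000 of the library size after scaling (trimmed mean of M values). A low-count filter kept 16240 genes and 35 Hox genes, and Hoxb8, Hoxc5 and Hoxd3 did not pass it. A gene is said to be called, or to have risen or fallen, where edgeR's quasi-likelihood test gave a Benjamini-Hochberg adjusted p under 0.05 over all 16240 genes. Where groups are said not to overlap, this describes 2 libraries against 2. Such values often separate without a difference, so non-overlap is not a test and adds no support to a call. In bulk RNA, fewer cells carrying a transcript and less of it per cell cannot be told apart.

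Summed over the 38 genes in CPM scaled as above, Hox RNA was lower than in MEF from day 3 on, and lower in d6 Eff than in d6 Ineff cells. The sum was 428 and 392 CPM in MEF, 268 and 239 in d3 Eff, 257 and 268 in d3 Ineff, 147 and 121 in d6 Eff, 228 and 257 in d6 Ineff, and 21.0 and 22.4 in iPSC. Both d6 Eff libraries lay below the other 8 libraries of MEF and the intermediates, and the day 3 and d6 Ineff libraries lay close together. As a share of the MEF mean, d3 Eff stood at 61.9%, d3 Ineff at 64.1%, d6 Eff at 32.7%, d6 Ineff at 59.2% and iPSC at 5.30%. These sums are descriptions and were not tested. They depend on the scaling: MEF replicate 2 had 2808 Hox counts among 9284060 counts in genes, with another 8563461 reads outside genes. The sums were not recomputed with library sizes that include such reads. With those sizes, Hox calls against MEF were 4 for d3 Eff, 0 for d3 Ineff and 2 for d6 Ineff.

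The 4 clusters kept different shares of their fibroblast level. Cluster b was low by day 3, with 3.17 and 3.64 CPM in d3 Eff and 8.00 and 4.84 CPM in d3 Ineff, against 36.9 and 26.4 CPM in MEF. Cluster c stood between, at 8.76 and 6.71 CPM in d3 Eff and 13.1 and 12.4 CPM in d3 Ineff, against 36.3 and 31.1 CPM in MEF. Clusters a and d held most of the signal: at day 3, cluster a stood at 80.2% of its MEF mean in d3 Eff and 85.5% in d3 Ineff, and cluster d at 62.3% and 58.2%. Without Hoxa9, which lay above MEF, cluster a stood at 63.7% in d3 Eff and 71.8% in d3 Ineff. Hoxd13 alone held 138 of the mean 187 CPM of cluster d in MEF. It held 78.5 of 117 CPM in d3 Eff, 69.1 of 109 in d3 Ineff and 38.1 of 96.2 in d6 Ineff. Likewise, Hoxb9 held 18.7 of the mean 31.6 CPM of cluster b in MEF. The shares of clusters b and d thus depend largely on these genes and do not show how their other members stood. At day 6 the libraries of the sorted populations did not overlap in clusters a, c and d, and overlapped in b. Cluster a had 93.9 and 76.2 CPM in d6 Eff, against 121 and 141 CPM in d6 Ineff. Cluster d had 49.3 and 37.5 CPM in d6 Eff, against 92.1 and 100.3 CPM in d6 Ineff. Cluster c had 2.05 and 3.47 CPM in d6 Eff, against 11.7 and 12.0 CPM in d6 Ineff.

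**Figure D1:**
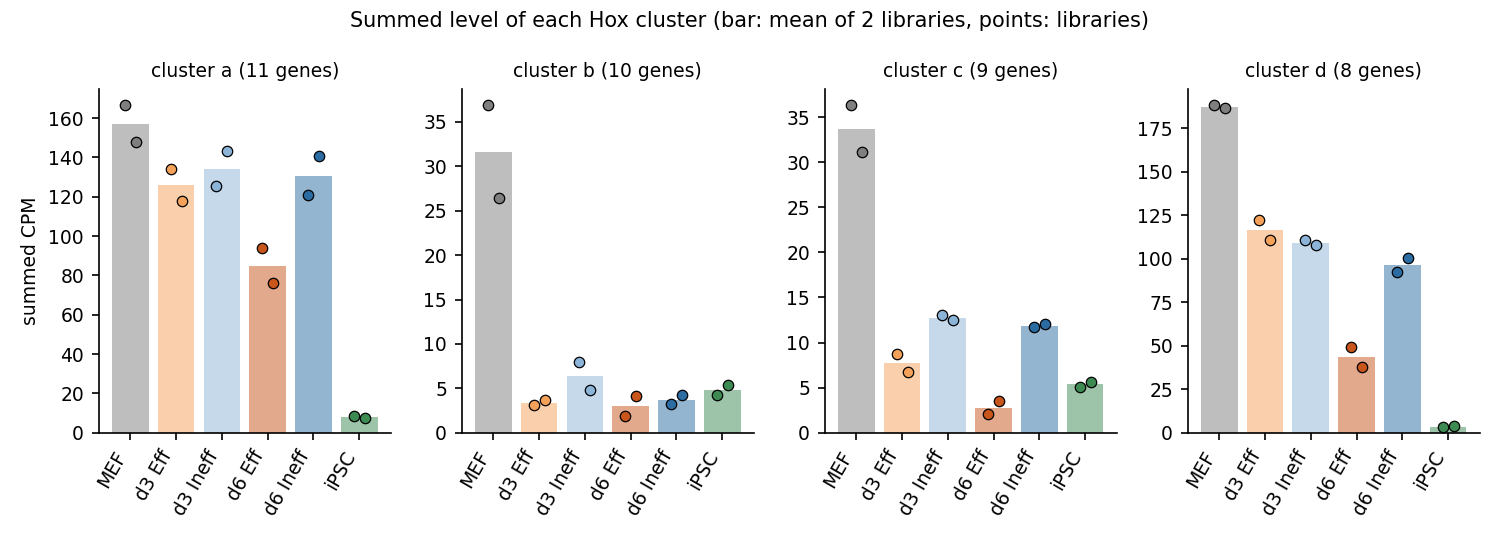
Summed CPM of the members of each Hox cluster in 6 groups; bars are the mean of 2 libraries and points the libraries. Cluster b is low by day 3. In d6 Ineff, cluster a stands at 83.2% of its MEF mean and cluster d at 51.4%. Hoxd13 alone holds 138 of the mean 187 CPM of cluster d in MEF and 38.1 of 96.2 CPM in d6 Ineff. Cluster d is lower in d6 Eff (49.3 and 37.5 CPM) than in d6 Ineff (92.1 and 100.3 CPM).

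By position within the clusters, posterior genes carried most Hox RNA in fibroblasts and intermediates, and the anterior sum in iPSC was within the fibroblast range. The 16 posterior members summed to 348 and 329 CPM in MEF, 118 and 95.4 in d6 Eff, 187 and 211 in d6 Ineff, and 8.68 and 10.6 in iPSC. The 11 central members summed to 62.4 and 54.4 CPM in MEF, and kept 28.6% of that mean in d6 Eff, 57.1% in d6 Ineff and 4.71% in iPSC. The 11 anterior members summed to 9.93 and 8.70 CPM in iPSC, against 17.1 and 8.38 CPM in MEF, and these ranges overlapped. Most of that iPSC sum came from 1 member, and no other anterior member reached 1 CPM in both iPSC libraries. The sum therefore does not show that the class as a whole kept its level. Posterior genes made up 81.4% and 84.0% of Hox CPM in MEF, 80.3% and 78.7% in d6 Eff, and 41.3% and 47.4% in iPSC. Anterior genes made up 47.2% and 38.8% of the small sum in iPSC, against 4.01% and 2.14% in MEF.

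**Figure D2:**
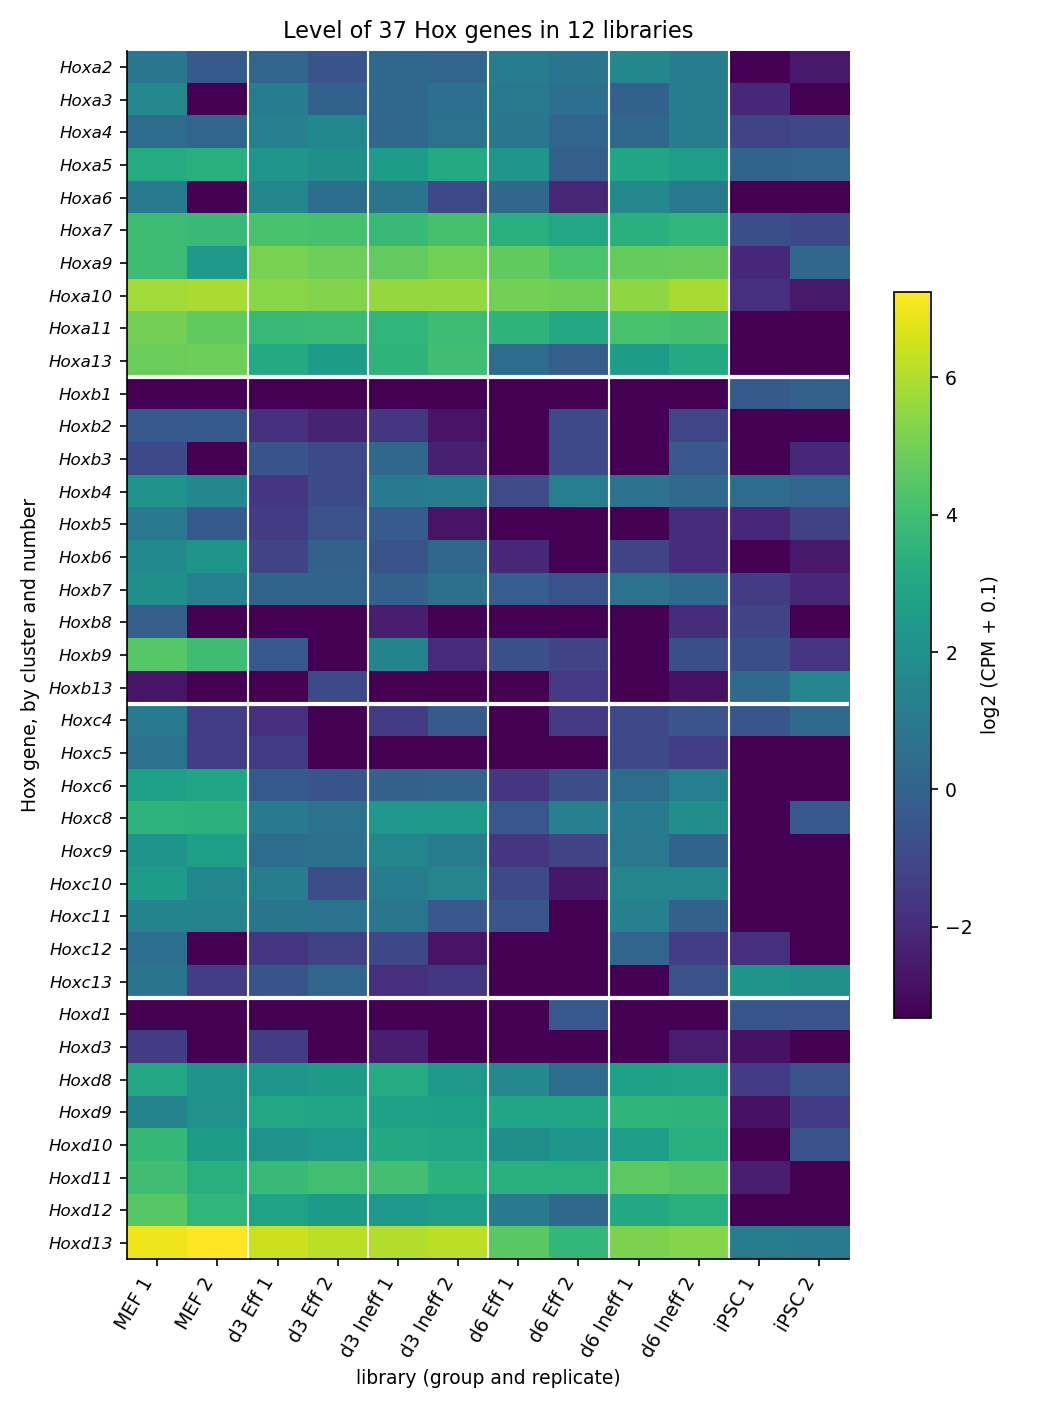
Level of 37 of the 38 Hox genes (rows, by cluster and number) in each library (columns) as log2 (CPM + 0.1), with lighter colours higher. Hoxd13 and Hoxa10 are the brightest rows in MEF and the iPSC columns are dark in most rows, with Hoxc13 (4.34 and 3.89 CPM in iPSC) among the exceptions.

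Per length, Hoxd13 was the most abundant member, with a mean over 12 libraries of 23.1 CPM per kb of exon, followed by Hoxa10 at 11.5 and Hoxa11 at 6.16. Hoxd13 patterns digits and the genital tubercle, and Hoxa10 and Hoxa11 pattern the thigh and forearm levels of the limb and the reproductive tract. By the same mean over 12 libraries, Hoxd10 was second in cluster d at 3.11 CPM per kb, Hoxb9 and Hoxb7 led cluster b at 1.39 and 0.785, and Hoxc8 and Hoxc10 led cluster c at 1.31 and 0.952. This order did not hold in each group: Hoxb9 was first in its cluster in MEF alone, at 7.27 CPM per kb, and Hoxd10 was second in d3 Ineff alone. Hoxd12 was second in MEF, Hoxd9 in d3 Eff, d6 Eff and d6 Ineff, and Hoxd1 in iPSC. Of the 38 genes, 22 reached 1 CPM in both MEF libraries, 18 in d3 Eff, 19 in d3 Ineff, 13 in d6 Eff, 21 in d6 Ineff and 4 in iPSC. In d6 Eff no member of cluster b or c reached that level in both libraries.

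In iPSC against MEF, which spans the whole course, 23 of the 35 tested Hox genes fell, or 65.7%, and none rose; over all genes tested 26.7% were called lower and 26.0% higher, 52.7% in all. They were 9 of 11 tested in cluster a, 3 of 9 in b, 5 of 8 in c and 6 of 7 in d, and 2 of 10 anterior, 8 of 9 central and 13 of 16 posterior genes. The median log2 fold change over the tested members was -5.03, against 0.04 over all genes. Among the 23 were Hoxa2 and Hoxa3 of the anterior class; central Hoxa5, Hoxa6, Hoxa7, Hoxb6, Hoxb7, Hoxc6, Hoxc8 and Hoxd8; and posterior Hoxa9, Hoxa10, Hoxa11, Hoxa13, Hoxb9, Hoxc9, Hoxc10, Hoxc11 and Hoxd9 to Hoxd13. Hoxa3 and Hoxa6 differed between the MEF libraries, with 0 counts in replicate 2. Both lost their call without MEF replicate 1 and without either iPSC library, and with MEF replicate 2 as the lone fibroblast library the fitted Hoxa3 change had the opposite sign.

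Hoxa10 had 0.172 and 0.0659 CPM in iPSC, against 54.5 and 58.6 CPM in MEF. Its log2 fold change was -8.71 ± 0.36 (SE; adjusted p = 3.13e-08). Hoxa11 had no count in iPSC, which puts it at least 373-fold lower than in MEF, taking 3 counts over the group as the floor. Hoxa13, a gene of digit and hindgut identity, had none either and was at least 378-fold lower. Hoxd12, another digit gene, also had none and was at least 222-fold lower. Hoxd13 was not silent: it had 2.15 and 1.91 CPM in iPSC, against 126 and 151 CPM in MEF. Its log2 fold change was -6.08 ± 0.33 (SE; adjusted p = 1.3e-07), and the groups did not overlap.

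In clusters b and c, trunk-level genes were also lower in iPSC. Hoxb9, which helps to pattern the thorax, had 0.473 and 0.198 CPM in iPSC, against 22.1 and 15.4 CPM in MEF (log2 fold change -5.72 ± 1.44, SE; adjusted p = 0.00616). Hoxc8, a thoracic gene, had 0 and 0.659 CPM in iPSC, against 11.1 and 11.0 CPM in MEF (log2 fold change -5.21 ± 1.06, SE; adjusted p = 0.00165). Hoxb7 had 0.258 and 0.132 CPM in iPSC, against 3.77 and 2.37 CPM in MEF (log2 fold change -3.91 ± 0.81, SE; adjusted p = 0.00186). In each of these the iPSC libraries lay below the MEF libraries. Hoxc10 had no count in iPSC and was at least 54.8-fold lower than in MEF.

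A few members kept or gained counts in iPSC and are named after their values were seen. Hoxc13, a hair and nail gene, had 4.34 and 3.89 CPM in iPSC, against 1.55 and 0.279 CPM in MEF, and did not pass the test (log2 fold change 2.07 ± 1.16, SE; adjusted p = 0.16).

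Hoxb1, which specifies a hindbrain segment, had 0.688 and 0.857 CPM in iPSC and no count in the other 10 libraries. Its 29 counts put it at least 6.83-fold higher in iPSC than in MEF, and the test gave an adjusted p of 0.0572. Hoxb13, a prostate and tail-end gene, had 1.12 and 2.70 CPM in iPSC, against 0.0516 and 0 CPM in MEF. With 67 and 1 counts, the ratio was 46.2 with a 95% counting interval of 8.02 to 1853, and the adjusted p was 0.0524. Hoxd1 had 0.602 and 0.593 CPM in iPSC, no count in MEF, and 0 and 0.646 CPM in d6 Eff, so the count in the intermediates came from d6 Eff replicate 2. None of these 3 was called against MEF. All 3 passed the low-count filter only through their iPSC counts and were picked for those counts. Their p-values, and the lack of overlap between the libraries of iPSC and MEF, are therefore description only.

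**Figure D3:**
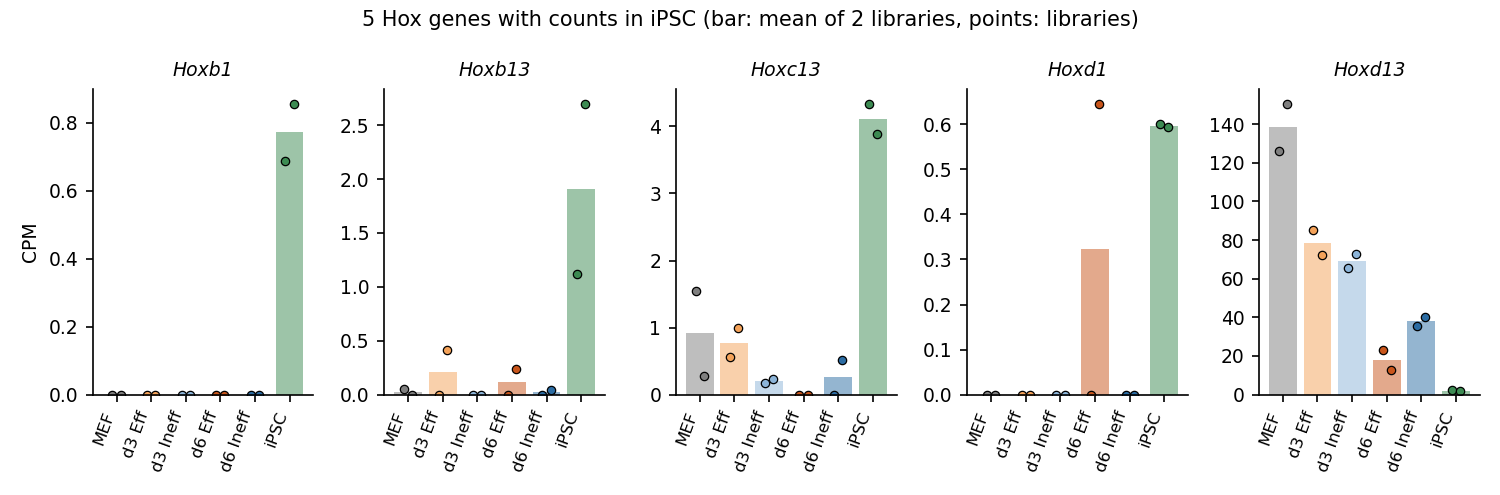
CPM of 5 Hox genes with counts in iPSC, in 6 groups; bars are the mean of 2 libraries and points the libraries, and each panel has its own axis. Hoxb1 has counts in iPSC alone (0.688 and 0.857 CPM), and Hoxd13 keeps 2.15 and 1.91 CPM in iPSC.

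At day 3, the first time sampled, a minority of Hox genes differed from the fibroblast level, and genes of clusters b and c and of the posterior end of a and d were among them. The 4 comparisons of intermediates with MEF share the MEF libraries with each other and with the iPSC comparison, so their values are given side by side and not as independent results. In d3 Eff against MEF, 9 of 35 fell and 2 rose; over all genes 18.6% were called lower and 18.0% higher, 36.5% in all. In d3 Ineff against MEF, 6 fell and none rose; over all genes 15.0% were called lower and 15.0% higher, 30.0% in all. The shares of members called lower, 25.7% and 17.1%, were thus near these backgrounds. Those lower in d3 Eff were Hoxa11, Hoxa13, Hoxb4, Hoxb9, Hoxc6, Hoxc8, Hoxc9, Hoxd12 and Hoxd13, and those lower in d3 Ineff were Hoxa11, Hoxa13, Hoxb9, Hoxc6, Hoxd12 and Hoxd13. With library sizes that include reads outside genes, the calls were 4 for d3 Eff and 0 for d3 Ineff. Without a library of the day 3 group compared, the calls shrank to 3 or 4 of d3 Eff and to 1 of d3 Ineff.

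Hoxb9 was among the genes already low. It had 0.650 and 0 CPM in d3 Eff and 2.58 and 0.136 CPM in d3 Ineff, against 22.1 and 15.4 CPM in MEF. Log2 fold changes were -5.77 ± 1.43 for d3 Eff (SE; adjusted p = 0.00868) and -3.78 ± 1.26 for d3 Ineff (SE; adjusted p = 0.0428). The d3 Eff call was lost without d3 Eff replicate 2, and the d3 Ineff call without d3 Ineff replicate 2, MEF replicate 1 or either iPSC library. Hoxc6, a thoracic gene, likewise had 0.694 and 0.572 CPM in d3 Eff and 0.831 and 0.905 CPM in d3 Ineff, against 6.45 and 7.54 CPM in MEF. Its 4 day 3 libraries all lay below the MEF libraries.

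Digit-level genes of clusters a and d were also lower by day 3. Hoxa13 had 8.76 and 5.46 CPM in d3 Eff and 11.5 and 16.1 CPM in d3 Ineff, against 28.6 and 30.3 CPM in MEF. Its log2 fold changes were -2.05 ± 0.38 for d3 Eff (SE; adjusted p = 0.00183) and -1.09 ± 0.36 for d3 Ineff (SE; adjusted p = 0.0454), the second of which held in 4 of 12 fits that left out a library. Hoxd12 had 6.68 and 5.36 CPM in d3 Eff and 4.85 and 5.84 CPM in d3 Ineff, against 22.2 and 12.4 CPM in MEF. Hoxd13 had 85.0 and 72.0 CPM in d3 Eff and 65.5 and 72.6 CPM in d3 Ineff, against 126 and 151 CPM in MEF. In all 3 genes the day 3 libraries lay below MEF without overlap.

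In 2 genes numbered 9 the direction was the opposite, and these were the members called higher than MEF. Some other members also stood above their MEF mean in some groups without a call. Among them were Hoxa4 at 239% in d3 Eff, and Hoxa2 at 211% and Hoxd11 at 173% in d6 Ineff. Hoxa9, which with Hoxd9 patterns the upper limb and is also a known blood progenitor gene, had 34.8 and 29.7 CPM in d3 Eff, 26.0 and 31.2 in d3 Ineff, 25.2 and 19.1 in d6 Eff, and 26.8 and 27.3 in d6 Ineff, against 14.9 and 5.17 in MEF. All 8 libraries of intermediates lay above both MEF libraries, but Hoxa9 was called in d3 Eff alone (log2 fold change 1.64 ± 0.52, SE; adjusted p = 0.0294). That call was lost without either d3 Eff library and with library sizes that include reads outside genes. Differences from MEF in d3 Ineff (1.47 ± 0.52, SE; adjusted p = 0.0541), d6 Eff (adjusted p = 0.112) and d6 Ineff (1.39 ± 0.52, SE; adjusted p = 0.065) did not pass. MEF replicate 2, the library with many reads outside genes, had the lowest value of the 10.

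Hoxd9 had 7.93 and 7.23 CPM in d3 Eff, 6.52 and 6.06 in d3 Ineff, 7.26 and 7.58 in d6 Eff, and 12.0 and 11.6 in d6 Ineff, against 2.53 and 3.91 in MEF. Here too the intermediates lay above MEF in all 8 libraries, and both iPSC libraries, at 0.0430 and 0.264 CPM, lay below it. It was called higher in d6 Ineff (log2 fold change 1.90 ± 0.43, SE; adjusted p = 0.00594), and this call held without each library in turn. The calls in d3 Eff (1.27 ± 0.43, SE; adjusted p = 0.0369) and d6 Eff (1.24 ± 0.43, SE; adjusted p = 0.0365) held in 3 of 12 such fits each; the fits that kept the calls left out MEF replicate 2 or an iPSC library. In d3 Ineff it was not called (1.00 ± 0.43, SE; adjusted p = 0.103).

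**Figure D4:**
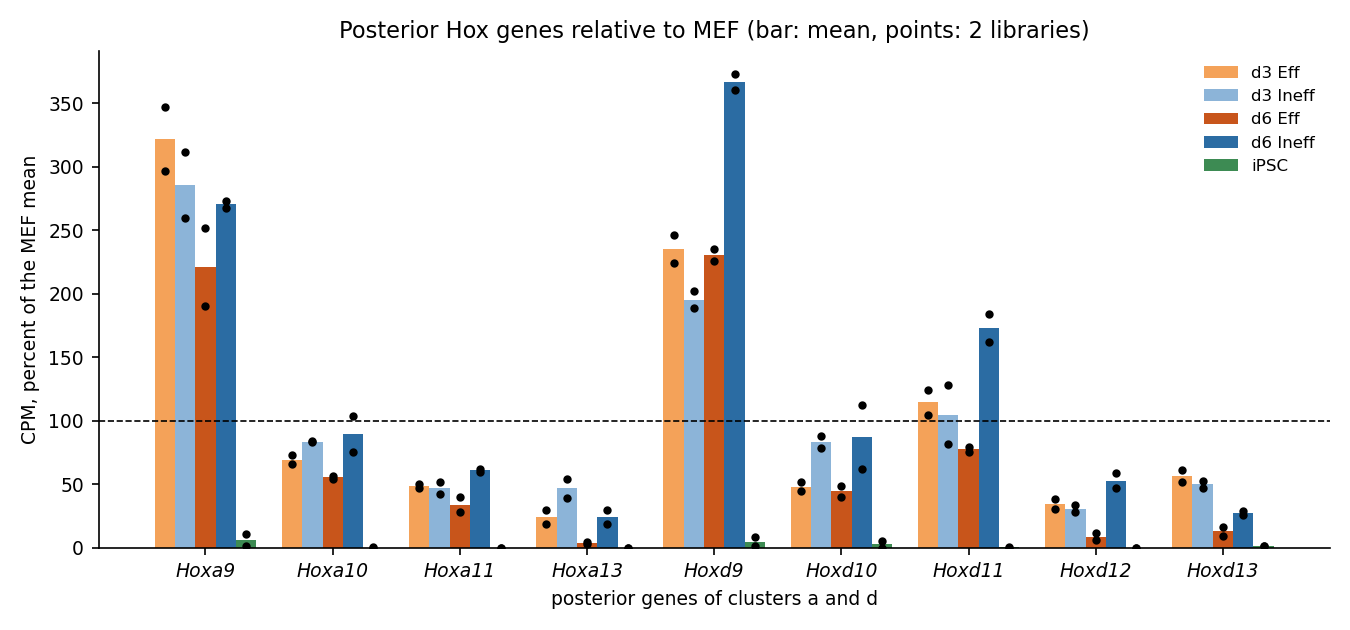
Level of 9 posterior genes of clusters a and d as a percent of their MEF mean, in CPM; bars are means and points 2 libraries, and the dashed line marks the MEF mean. Hoxa9 and Hoxd9 lie above the line in all 4 intermediate groups, and Hoxa13, Hoxd12 and Hoxd13 lie lowest in d6 Eff (3.51%, 8.71% and 12.9%).

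By day 6 the 2 sorted populations stood at different distances from MEF. In d6 Eff against MEF, 17 of 35 fell, or 48.6%, and 1, Hoxd9, rose; over all genes 21.7% were called lower and 20.9% higher, 42.6% in all. Those that fell were 8 of 9 central and 9 of 16 posterior members. Of 10 anterior members edgeR called 0, with 0 at an unadjusted p under 0.05 and 0 called by DESeq2. In d6 Ineff against MEF, 6 fell, or 17.1%, and 1, again Hoxd9, rose. Over all genes 15.2% were called lower and 15.6% higher, 30.8% in all. The share of members called lower in d6 Ineff was thus near this background. The 6 were Hoxa13, Hoxb6, Hoxb9, Hoxc6, Hoxc9 and Hoxd13, of which Hoxc6 and Hoxc9 held in 2 of 12 fits without a library. Median log2 fold changes over the members were -1.56 in d6 Eff and -0.52 in d6 Ineff, against 0.03 and 0.00 over all genes. The d6 Eff count dropped to 10 without d6 Eff replicate 2 and the d6 Ineff count to 3 without d6 Ineff replicate 1. With library sizes that include reads outside genes, the d6 Ineff calls were 1 higher and 1 lower.

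In clusters b and c, 3 members each had no count in d6 Eff. Hoxb5 was among them, against 1.76 and 0.698 CPM in MEF, and so was Hoxc13, against 1.55 and 0.279 CPM in MEF; both calls were lost without MEF replicate 1 or either d6 Eff library. Hoxb4, by contrast, had 0.445 and 2.17 CPM in d6 Eff, against 4.08 and 2.93 CPM in MEF, and was not called. Hoxb6 had 3 counts in d6 Eff and 93 in MEF, a ratio of 0.0217 with a 95% counting interval of 0.00439 to 0.0654. Hoxc9 had 0.223 and 0.352 CPM in d6 Eff and 1.80 and 0.957 in d6 Ineff, against 4.34 and 6.28 in MEF. Hoxc8 had 0.624 and 2.35 CPM in d6 Eff and 1.91 and 3.55 in d6 Ineff, against 11.1 and 11.0 in MEF. Hoxb7 had 0.802 and 0.529 CPM in d6 Eff and 1.45 and 1.12 in d6 Ineff, against 3.77 and 2.37 in MEF. In Hoxc8 the d6 Eff and d6 Ineff libraries overlapped, and in Hoxc9 and Hoxb7 they did not.

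The direct comparison of d6 Eff with d6 Ineff asks which Hox genes differ between the populations sorted on the same day. Of 35, 5 were lower in d6 Eff and none was higher; over all genes 9.25% were called lower and 5.38% higher. All 5 were posterior: Hoxa13, Hoxc10, Hoxd11, Hoxd12 and Hoxd13. Another 7 reached an unadjusted p under 0.05 and no call, 5 of them posterior. The DESeq2 test called 10, of which 2 were central and 8 posterior. The median log2 fold change was -1.60 over the 9 central members and -1.12 over the 16 posterior members. Lower values were therefore not confined to the posterior class, although the edgeR calls were. Because 14.3% of the members and 9.25% of all genes were called lower, the count alone does not set Hox genes apart; the 5 genes are given next.

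Hoxa13 had 1.25 and 0.822 CPM in d6 Eff, against 5.56 and 8.69 CPM in d6 Ineff (log2 fold change -2.77 ± 0.42, SE; adjusted p = 0.00199). Hoxd12 had 1.96 and 1.06 CPM in d6 Eff, against 8.17 and 10.1 CPM in d6 Ineff (log2 fold change -2.58 ± 0.45, SE; adjusted p = 0.00431). Both calls held without each library in turn, and Hoxd12 lost its call with library sizes that include reads outside genes. Of the windows printed above, that of Hoxa13 holds 45 CG dinucleotides and that of Hoxd12 holds 13.

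Hoxd13 had 22.9 and 12.7 CPM in d6 Eff, against 35.7 and 40.4 CPM in d6 Ineff (log2 fold change -1.09 ± 0.26, SE; adjusted p = 0.0171). Hoxd11, which patterns the forearm with Hoxa11, had 10.3 and 9.81 CPM in d6 Eff, against 23.9 and 21.0 CPM in d6 Ineff (log2 fold change -1.16 ± 0.35, SE; adjusted p = 0.0477). In MEF Hoxd11 had 16.1 and 9.91 CPM, and neither day 6 group was called against MEF. Its mean was 77.6% of the MEF mean in d6 Eff and 173% in d6 Ineff, where both libraries lay above both MEF libraries. Hoxc10, a hindlimb and lumbar gene, had 0.401 and 0.0587 CPM in d6 Eff, against 2.67 and 2.75 CPM in d6 Ineff (log2 fold change -3.46 ± 0.97, SE; adjusted p = 0.0389). In all 5 genes both d6 Eff libraries lay below both d6 Ineff libraries. These last 3 calls were lost with library sizes that include reads outside genes and were less stable, holding in 9, 6 and 7 of 12 fits without a library for Hoxd13, Hoxd11 and Hoxc10; Hoxd13 lost its call without d6 Eff replicate 2 or either d6 Ineff library, Hoxd11 without any d6 or d3 Eff library, and Hoxc10 without d6 Eff replicate 2 or any Ineff library.

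**Figure D5:**
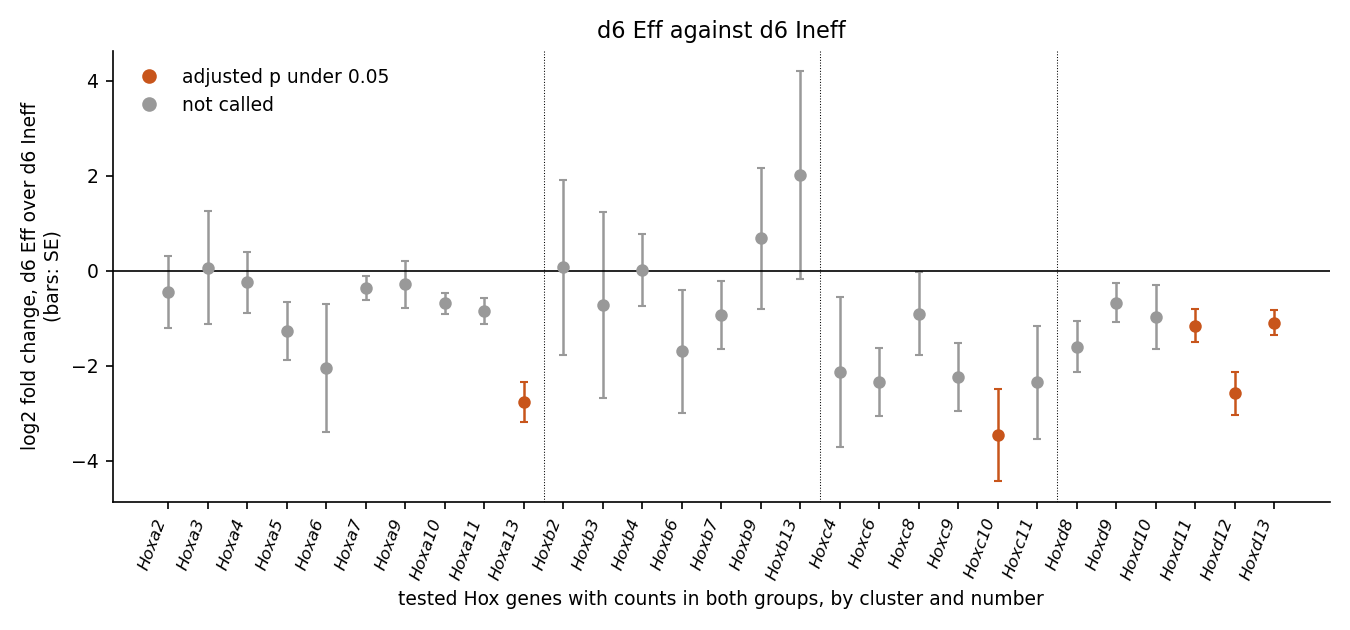
Log2 fold change of d6 Eff over d6 Ineff with its SE for 29 tested Hox genes that had counts in both groups, by cluster and number; called genes are coloured. Hoxa13 and Hoxd12 lie at -2.77 and -2.58. Hoxa9 and Hoxd9, further along the same clusters, lie at -0.29 and -0.67 and were not called. Hoxd11 and Hoxd13, on either side of Hoxd12, were called.

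The other posterior genes of clusters a and d were not called by edgeR between the day 6 groups. In cluster a, edgeR called 1 member, DESeq2 called 3, and 3 had an unadjusted edgeR p under 0.05. In cluster d, edgeR called 3 members and DESeq2 called 4. Hoxa10 had 32.1 and 30.8 CPM in d6 Eff, against 42.8 and 58.5 CPM in d6 Ineff (log2 fold change -0.69 ± 0.22, SE; adjusted p = 0.0571). Hoxa11 had 11.6 and 8.11 CPM in d6 Eff, against 18.1 and 17.3 CPM in d6 Ineff (log2 fold change -0.85 ± 0.28, SE; adjusted p = 0.0703). Hoxd10 had 3.70 and 4.52 CPM in d6 Eff, against 5.74 and 10.4 CPM in d6 Ineff (log2 fold change -0.98 ± 0.68, SE; adjusted p = 0.385). None of these passed the edgeR test. Their libraries did not overlap between the groups, which with 2 libraries a group is description only. Hoxc12 and Hoxc13, the last genes of cluster c, had no count in d6 Eff, against 0.985 and 0.279 CPM for Hoxc12 and 0 and 0.519 CPM for Hoxc13 in d6 Ineff, and neither was called.

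At day 3 the same sorting question gave no called Hox gene. In d3 Eff against d3 Ineff, edgeR's quasi-likelihood test called 0 of 35, 2 reached an unadjusted p under 0.05 and DESeq2 called 0; over all genes 0.400% were called. Hoxa13 was among those 2, with a log2 fold change of -0.95 ± 0.37 (SE; adjusted p = 0.485). The change of the Eff against Ineff contrast between day 6 and day 3 was tested directly. By edgeR 0 of 35 passed, against 1.39% of all genes, 0.296% higher and 1.09% lower, while 7 had an unadjusted p under 0.05 and DESeq2 called 2. The smallest adjusted p belonged to Hoxd12, with a difference of -2.75 ± 0.61 on the log2 scale (SE; adjusted p = 0.0661). Hoxd13 followed with -1.28 ± 0.36 (SE; adjusted p = 0.137) and Hoxa13 with -1.81 ± 0.55 (SE; adjusted p = 0.178). That the gap in these genes differed between the days was therefore not shown by edgeR; without MEF replicate 1, MEF replicate 2 or d6 Eff replicate 1 it called 4, 2 and 1.

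Between the 2 days, a few posterior genes and Hoxa7 fell in the Eff population. In d6 Eff against d3 Eff, 4 of 35 fell, or 11.4%, and none rose; over all genes 4.87% were called lower and 4.24% higher, 9.11% in all. They were Hoxa7, Hoxa13, Hoxd12 and Hoxd13. Hoxd13 fell to 22.9 and 12.7 CPM in d6 Eff, against 85.0 and 72.0 CPM in d3 Eff (log2 fold change -2.14 ± 0.27, SE; adjusted p = 0.000564). Hoxa13 fell to 1.25 and 0.822 CPM in d6 Eff, against 8.76 and 5.46 CPM in d3 Eff (log2 fold change -2.76 ± 0.42, SE; adjusted p = 0.00244). These 2 calls held without each library in turn, and the count was 2 without either d3 Eff library or without d6 Eff replicate 2. Hoxa7, a thoracic gene, had 9.62 and 7.87 CPM in d6 Eff, against 18.3 and 18.0 CPM in d3 Eff.

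In the Ineff population, d6 Ineff against d3 Ineff gave 0 of 35 by edgeR, with 3 at an unadjusted p under 0.05 and 1 by DESeq2; over all genes 4.42% were called, 3.19% higher and 1.23% lower. Hoxd13 had 35.7 and 40.4 CPM in d6 Ineff, against 65.5 and 72.6 CPM in d3 Ineff (log2 fold change -0.86 ± 0.26, SE; adjusted p = 0.092). Hoxd9 had 12.0 and 11.6 CPM in d6 Ineff, against 6.52 and 6.06 CPM in d3 Ineff (log2 fold change 0.91 ± 0.40, SE; adjusted p = 0.26). The groups did not overlap in either gene. Without MEF replicate 1 or 2, 1 member was called.

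In iPSC against d6 Eff, the Hox RNA that d6 Eff cells still had in clusters a and d was mostly absent. Of 35 members 14 fell and 1, Hoxc13, rose; over all genes 15.9% were called lower and 13.6% higher, 29.6% in all. By cluster, 6 of 11 fell in a, 0 of 9 in b by edgeR (1 at an unadjusted p under 0.05 and 0 by DESeq2), 2 of 8 in c and 6 of 7 in d. Hoxa10 had 0.172 and 0.0659 CPM in iPSC, against 32.1 and 30.8 CPM in d6 Eff (log2 fold change -7.86 ± 0.36, SE; adjusted p = 2.17e-07). Hoxa11 had no count in iPSC and was at least 126-fold lower than in d6 Eff. Hoxa9 had 0.129 and 1.05 CPM in iPSC, against 25.2 and 19.1 CPM in d6 Eff (log2 fold change -5.37 ± 0.68, SE; adjusted p = 0.000136). Hoxc13 had 160 counts in iPSC and none in d6 Eff, and was at least 54.1-fold higher in iPSC (adjusted p = 0.00545), a call that held without each library in turn.

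Reads were counted without regard to strand, per the names of the deposited tables. Where exons overlap, a read thus cannot be told to come from a Hox gene or its antisense neighbour. HTSeq set aside 1.72% to 3.65% of uniquely aligned reads as ambiguous between genes. Whether reads of these overlaps were set aside or counted to the Hox gene was not tested. Such overlap covered 52.9% of the exon length of Hoxb3 and 27.3% of Hoxb2 with Hoxb3os, 35.0% of Hoxa11 with Hoxa11os and 20.4% of Hoxa7 with Hoxaas3. Exons of Hoxc5 and Hoxc10 share 166 bases on the same strand, and Hoxa13, Hoxd9, Hoxd12 and Hoxd13 overlap no annotated exon of another gene. Hoxa11os, the antisense RNA of Hoxa11, had 11.2 and 11.0 CPM in d6 Eff, against 27.6 and 29.9 CPM in d6 Ineff (log2 fold change -1.37 ± 0.24, SE; adjusted p = 0.00453). At day 3 Hoxa11os was near MEF, at 29.2 and 33.2 CPM in d3 Eff and 26.2 and 32.2 in d3 Ineff, against 23.5 and 31.4 in MEF, while Hoxa11 was lower than in MEF in both. In iPSC Hoxa11os had no count.

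Of the 23 annotated genes other than Hox that lie within the clusters in the count tables, 10 were tested. In iPSC against MEF 4 of them fell and none rose, where 26.7% of all genes were called lower and 26.0% higher, and in d6 Eff against d6 Ineff 2 fell, where 9.25% of all genes were called lower. Hotairm1, a long non-coding RNA gene of cluster a, had 1.07 and 0.922 CPM in iPSC, against 3.36 and 3.77 CPM in MEF (log2 fold change -1.82 ± 0.47, SE; adjusted p = 0.00758). The 6 microRNA genes within the clusters had no count in any library, in tables made from poly-A RNA. Of the 3 nearest protein-coding genes on each side of each cluster, 22 were tested: in iPSC against MEF 10 rose and 1, Evx2, fell, beside the same shares of all genes. Evx2, a homeobox gene next to Hoxd13, had 0 and 0.329 CPM in iPSC, against 4.18 and 3.21 CPM in MEF.

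Genes that act with or on Hox genes were read in the same fits, in which 26.0% of all genes were called higher and 26.7% lower in iPSC against MEF, and 5.38% higher and 9.25% lower in d6 Eff against d6 Ineff. TALE homeodomain proteins are the DNA-binding partners of Hox proteins: of 9 tested, 3 rose and 6 fell in iPSC against MEF, with Meis1 lower (log2 fold change -2.75 ± 0.44, SE; adjusted p = 0.0003) and Pbx2 higher (1.29 ± 0.19, SE; adjusted p = 0.000207). Polycomb proteins keep Hox clusters silent: of 24 tested, 15 rose and 7 fell in iPSC against MEF. Cbx7 was higher (5.96 ± 0.25, SE; adjusted p = 3.24e-08), and Bmi1 was lower (-3.16 ± 0.26, SE; adjusted p = 2.19e-06). In d6 Eff against d6 Ineff 4 of 24 rose and 1 fell, with Ezh2, the H3K27 methyltransferase, higher (1.31 ± 0.17, SE; adjusted p = 0.000703) and Cbx8 lower (-1.36 ± 0.38, SE; adjusted p = 0.0337). Of 11 MLL and H3K27 demethylase genes, which oppose Polycomb, 6 rose and none fell in iPSC against MEF, and in d6 Eff against d6 Ineff 1 rose, Wdr5.

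Retinoic acid induces anterior Hox genes. Of 15 tested pathway genes, 9 fell and none rose in iPSC against MEF, where 26.7% of all genes were called lower, and 3 fell in d6 Eff against d6 Ineff, where 9.25% were, with Rdh10, which makes retinaldehyde, at -1.60 ± 0.34 (SE; adjusted p = 0.00968). Limb and body-position factors other than Hox genes included many called genes. Of 18 tested, 15 fell in iPSC against MEF and 7 in d6 Eff against d6 Ineff, beside the same 26.7% and 9.25% of all genes, and none rose. Prrx1, a limb mesenchyme homeobox gene, was lower in d6 Eff than in d6 Ineff (log2 fold change -3.13 ± 0.26, SE; adjusted p = 5.43e-05). Tbx15 was lower too (-1.04 ± 0.21, SE; adjusted p = 0.00755). Of 4 tested Cdx, ParaHox and Evx genes, 1 rose in iPSC against MEF, Cdx1, and 1 fell, Evx2. These lists were chosen with results of the data known and give description only.

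Fibroblast markers also differed between the groups. The 12 markers, which include Prrx1, summed to 1054 and 799 CPM in d6 Eff, against 5954 and 5770.3 CPM in d6 Ineff, and 8 of the 12 were called lower. Pdgfra had no count in d6 Eff. They summed to 669 CPM in each iPSC library, 5584 and 5089.9 in d3 Eff and 9090.1 and 8538 in d3 Ineff, against 56964 and 19561 CPM in MEF. Sums of 5 endothelial markers were 74.2 and 72.4 CPM in d6 Eff, against 149 and 153 CPM in d6 Ineff, and 8 leukocyte markers summed to 205 and 206 CPM against 479 and 491 CPM, with Ptprc, the defining leukocyte marker, at 0 in both groups. Skeletal muscle markers summed to 13.3 and 10.9 CPM in d6 Eff, against 7.24 and 6.50 CPM in d6 Ineff. Neural and glial markers summed to 27.4 and 19.5 CPM in d6 Eff, against 18.4 and 21.1 CPM in d6 Ineff, and keratinocyte markers to 6.33 and 6.64 CPM against 8.52 and 5.94 CPM. All 10 pluripotency markers rose in iPSC against MEF, and 4 rose and 1 fell in d6 Eff against d6 Ineff. Of the genes for the sorted surface proteins, Epcam was higher in d6 Eff than in d6 Ineff (log2 fold change 5.13 ± 0.32, SE) and Ly6a, which encodes Sca1, was lower (-5.43 ± 0.36, SE). The part of these cell types in the Hox differences was not tested.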

How the data were processed

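RNA from 12 libraries of 6 groups was analysed, starting from whole-number read counts per gene that the authors deposited. Reads were aligned to mm9 with STAR 2.3.0, processed with Picard 1.100 and counted with HTSeq 0.6.0, per the submitters' processing notes; the annotation was not given in the sources used here. Strand was ignored in counting, per the names of the deposited tables. The 5 HTSeq summary lines named no gene and were left out; reads outside genes were 5.10% to 47.2% of uniquely aligned reads.

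Ensembl IDs were given symbols, exon lengths and neighbours from GENCODE M21 (GRCm38), a later build than mm9, so no gene coordinates are given from it. Start-site sequences are from RefSeq (GRCm38.p6). Counts were filtered with filterByExpr, scaled by TMM and fitted over all 12 libraries with edgeR 4.0.16 (robust quasi-likelihood, 6 residual degrees of freedom, prior count 0.125 for fold changes) in R 4.3.3 with limma 3.58.1. Adjusted p-values are Benjamini-Hochberg over 16240 genes. Fitted log2 fold changes of genes with no count in a group depend on the prior count, so a bound from 3 counts over the group, or a ratio with an exact 95% counting interval for 1 to 3 counts, is given instead; both cover counting error only. DESeq2 1.42.0 was an alternative. Counts were between 9284060 and 22763548 per library, so 3 counts correspond to 0.12 to 0.42 CPM in a library. Python 3.11.15 with pandas 2.3.3, scipy 1.17.1 and matplotlib 3.10.9 made summaries and figures. The scripts were tested on simulated data.

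Members named by rule were the 2 highest per length in each cluster, every member called between Eff and Ineff on a day, and every member called higher than MEF. Their library values are printed for groups taken up in the text, and not for all 6 groups in every gene. Up to 3 called genes per direction may be named from each list. Other Hox genes and neighbours named were chosen after their values were seen. The members and lists were chosen with earlier results of these data known. Alternatives were RLE scaling, no low-count filter, library sizes with reads outside genes, a replicate block, only the groups compared, DESeq2 and each library left out. Values of 1 Hox gene and 1 listed gene are not reported here; both are in the counts and sums.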

Additional observations from a re-analysis of the deposited data

How the results depend on the processing

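Results were recomputed under 18 alternatives, 12 of which left out 1 library; a group reduced to 1 library was assumed to vary like the others. Without 1 library, the number of Hox genes called was 21 to 27 for iPSC against MEF, 3 to 12 for d3 Eff, 1 to 7 for d3 Ineff, 10 to 21 for d6 Eff and 3 to 9 for d6 Ineff, each against MEF. It was 2 to 8 for d6 Eff against d6 Ineff, 0 in every such fit for d3 Eff against d3 Ineff, 2 to 5 for d6 Eff against d3 Eff, 0 to 1 for d6 Ineff against d3 Ineff, 12 to 19 for iPSC against d6 Eff and 0 to 4 for the difference between the day 6 and day 3 contrasts. The 8 calls of the day 6 contrast came without either MEF library, and the 2 without d6 Eff replicate 2 or either d6 Ineff library. With library sizes that include reads outside genes and ambiguous reads, the median of all genes shifted by 0.49 to 0.60 on the log2 scale against MEF and by -0.11 in d6 Eff against d6 Ineff. Calls were then 4 for d3 Eff, 0 for d3 Ineff, 11 for d6 Eff and 2 for d6 Ineff against MEF, 1 for d6 Eff against d6 Ineff and 2 for d6 Eff against d3 Eff. With only the groups compared in the fit, calls were 7 for d3 Eff, 2 for d3 Ineff and 10 for d6 Eff against MEF, 2 for d3 Eff against d3 Ineff, 8 for d6 Eff against d6 Ineff, 3 for d6 Ineff against d3 Ineff and 4 for the difference between contrasts; these fits have fewer libraries. DESeq2 called 10 in d6 Eff against d6 Ineff, 1 in d6 Ineff against d3 Ineff and 2 for the difference between contrasts, and without a low-count filter there were 2 calls in d6 Ineff against d3 Ineff and 3 for the difference between contrasts. Of 385 member results, 382 kept their direction and side of the threshold under RLE scaling. Ranked by CPM without length, 5 of the 8 highest members by cluster were shared. MEF replicate 2 has no Hoxa3 count, and without MEF replicate 1 the Hoxa3 log2 fold change against MEF was positive. Over the fits without 1 library it lay between -7.97 and 3.64 for Hoxa3, iPSC against MEF, between -1.16 and 7.85 for Hoxa3, d3_Eff against MEF, between -1.41 and 7.56 for Hoxa3, d3_Ineff against MEF, between -1.04 and 7.96 for Hoxa3, d6_Eff against MEF, and between -1.07 and 7.90 for Hoxa3, d6_Ineff against MEF. Libraries with the same replicate number did not deviate together (correlations of -0.101 to 0.213 over 15 pairs of groups), so numbers were not taken as pairs; with a replicate block, calls were 23 for iPSC, 10 for d3 Eff, 5 for d3 Ineff, 17 for d6 Eff and 5 for d6 Ineff against MEF, 5 for d6 Eff against d6 Ineff, 4 for d6 Eff against d3 Eff, 16 for iPSC against d6 Eff and 0 for the other 3 comparisons. The causes of these shifts were not tested. Depth limits genes under about 1 CPM, where many members of clusters b and c lie, and 2 libraries per group limit every test.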
